A study of Homo sapiens with 4 samples.

Results

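Solute carriers are membrane proteins that move amino acids, sugars, metals, nucleotides and other solutes across the plasma membrane or the membranes of organelles. Their genes carry symbols that begin with SLC and a family number, or SLCO for the organic anion transporters. The peaks described here were those of a HuR RNA immunoprecipitation (RIP-seq) whose RefSeq transcript, as named in the deposited annotation, belongs to a gene with such a symbol. They numbered 312 of 14149 peaks and lay in 63 of 3313 genes with a peak. Of the 63 genes, 62 code for a protein, and the other was SLC7A11-AS1, a long non-coding RNA gene.

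RNA was recovered from lysates of MDA-MB-231 cells with a mouse anti-HuR antibody in 2 samples and with mouse IgG, the control, in the other 2. MDA-MB-231 is a triple-negative human breast cancer line, and all 4 samples were of this line with no treatment or gene alteration named in the labels. The list gave 1 score per peak for the whole series. No value carried a replicate error, no score was an enrichment over IgG, and the depth of each sample is unknown. Among the genes set as a check of the line, the mesenchymal surface genes AXL and CD44 had 21 and 13 peaks. VIM and CAV1, which were also expected in this mesenchymal line, had none. No peak was listed either for ESR1, PGR, ERBB2, CDH1 or EPCAM, which such cells are known to express weakly or not at all. The presence or absence of a peak is no level of expression.

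HuR, encoded by ELAVL1, is an RNA-binding protein that recognises U-rich and AU-rich stretches, mostly in introns and in the 3′-UTR, the untranslated end of an mRNA. The pentamer AUUUA, written ATTTA in DNA letters, is the core of the best known class of AU-rich elements. Binding by HuR is known to raise the stability or translation of many mRNAs.

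The stretches below come from the highest 3′-UTR peak of 9 solute carrier genes and show how ATTTA lay in them. They were taken from the 11 genes with such a peak at 104.7 or above, of which SLC25A32 and SLC19A2 had no ATTTA in theirs and so none is printed. Each is the 30-base stretch of that peak with the most ATTTA, in hg38 on the strand of the gene, and capitals mark ATTTA. The peak scores of these genes ran from 774.5 for SLC38A2 to 104.7 for SLC35F5.
SLC38A2, chr12:46359675-46359704, minus strand: tttgaaacttggctttaagagcacATTTAt
SLC25A24, chr1:108135937-108135966, minus strand: gcaATTTAtttgaaagattccgtttatcct
SLC4A7, chr3:27376046-27376075, minus strand: cATTTAtaacttctgaATTTAaaaagttat
SLC39A10, chr2:195736529-195736558, plus strand: tgttttcATTTAgtactcttctttcctcct
SLC71A2, chr9:94460550-94460579, plus strand: aaaactttacagATTTAtatgtattttgct
SLC35F6, chr2:26780449-26780478, plus strand: ttctgccATTTAgaataattctggtatcct
SLC30A9, chr4:42086375-42086404, plus strand: cattttggttATTTAaattgttcataatgt
SLC35D4, chr18:23296936-23296965, minus strand: cctttttatggttggtgttactATTTAttt
SLC35F5, chr2:113714685-113714714, minus strand: atgtttaATTTAtgcaacaagcatgtttgt

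Solute carrier genes appeared in the list about as often as other genes. A peak was listed for 62 of 398 SLC protein-coding genes, or 15.6% (95% Wilson interval 12.3 to 19.5%), beside 15.4% of all 20056 protein-coding genes. The symbol pattern also takes in 4 genes that are no carriers and had no peak: SLC4A1AP, SLC2A4RG, SLC7A6OS and SLC30A4-AS1. Without them the share was 15.7% of 394 genes. Among other transport genes, 5 of 46 ABC genes (10.9%) and 15 of 65 ATP-driven pump genes (23.1%) had a peak. Their intervals were 4.73 to 23% and 14.5 to 34.6%. The ABC genes were those of the families ABCA to ABCG, of which ABCE and ABCF are not membrane transporters and were not taken out. None of the 98 SLC pseudogenes and 1 of 56 SLC long non-coding RNA genes had one. Only genes with a RefSeq transcript could be listed, and how many of these pseudogenes and non-coding genes have such a transcript was not counted. A gene without a peak is not thereby shown to be unbound, since the list held selected peaks only, with a lowest score of 8.32.

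The substrate groups, formed from family numbers, differed in their share of genes with a peak. The highest shares were those of metal transporters: 10 of 25 zinc transporter genes had a peak (40%, interval 23.4 to 59.3%), and 4 of 8 genes for other metals and magnesium (50%, 21.5 to 78.5%). The lower bounds of both lay above the 15.4% of all protein-coding genes. Both were singled out as the highest of all the groups after the shares were seen. The intervals are not adjusted for the number of groups looked at, so they do not show that these groups stand apart. The second share rested on weak peaks: SLC41A3 had 1 at 10, outside its canonical transcript and 1319 bp from an exon, SLC11A2 had 1 at 12, and SLC41A1 reached 26.4. Without SLC41A3 it was 3 of 8, with an interval of 13.7 to 69.4% that contained 15.4%. Both zinc families contributed, with 5 of 10 SLC30A carriers, most of which move zinc out of the cytosol, and 5 of 14 SLC39A genes, which carry it in. SLC30A4-AS1 is the other of the 25. Mitochondrial carriers (10 of 48), nucleotide sugar transporters of the SLC35 family (6 of 31), ion exchangers (8 of 53) and amino acid transporters (9 of 61) had intervals that contained 15.4%. At the low end were sugar transporters, with 2 of 36 genes. No peak was listed for 7 nucleoside transporter genes or for the 19 genes of the phosphate and sulfate families SLC13, SLC17, SLC20 and SLC34. SLC26A2, which also carries sulfate, falls under ion exchangers by its family number. The intervals of these low groups, 1.54 to 18.1%, 0 to 35.4% and 0 to 16.8% in that order, contained 15.4% as well. Without the genes that are no carriers, ion exchangers had 8 of 52, amino acid transporters 9 of 60 and sugar transporters 2 of 35. These shares were not tested against each other.

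**Figure D1:**
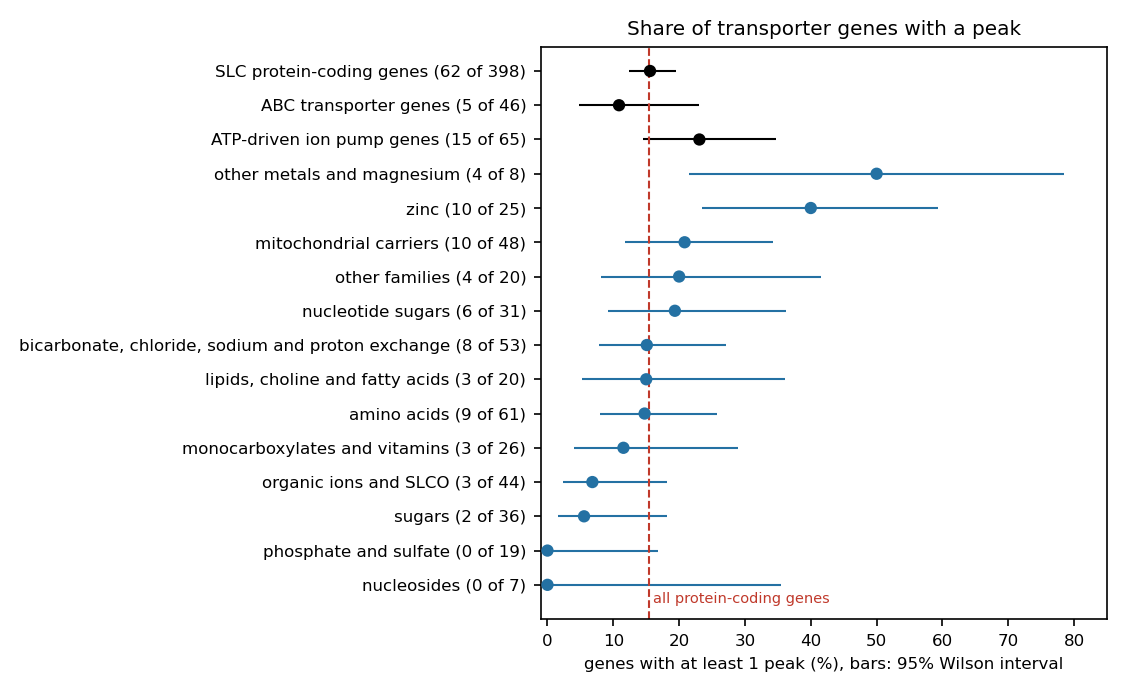
Share of genes with at least 1 peak (x axis, percent), with 95% Wilson intervals as bars and the number of genes beside each name. Black marks solute carrier genes as a whole, ABC genes of the families ABCA to ABCG (labelled ABC transporter genes) and ATP-driven pump genes. Blue marks each substrate group of solute carriers. The dashed line is the 15.4% of all protein-coding genes. Only the intervals of zinc transporters and of other metal and magnesium transporters lie wholly above it. The second does so only with SLC41A3, whose 1 peak lay outside its canonical transcript. Without SLC41A3 its interval was 13.7 to 69.4%.

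The scores of solute carrier peaks lay between 8.81 and 774.5. Their median was 32.3 (quartiles 18.6 and 66.1), and that of all other peaks was 34. Taken by gene, the highest score had a median of 43.8 over 63 solute carrier genes and 34 over the other genes. A highest score of at least 100 was reached by 15 of the 63 genes, 14 of them protein-coding, beside 21.6% of all genes with a peak. Peaks were unevenly shared out: 19 genes had 1 peak each, whereas 15 genes with at least 10 peaks held 190 of the 312. The median was 3 peaks per solute carrier gene and 2 per other gene. The focus ratio, the fraction of a peak's reads that lie as a point source would place them, had a median of 0.548 in solute carrier peaks and 0.542 in the whole list.

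**Figure D2:**
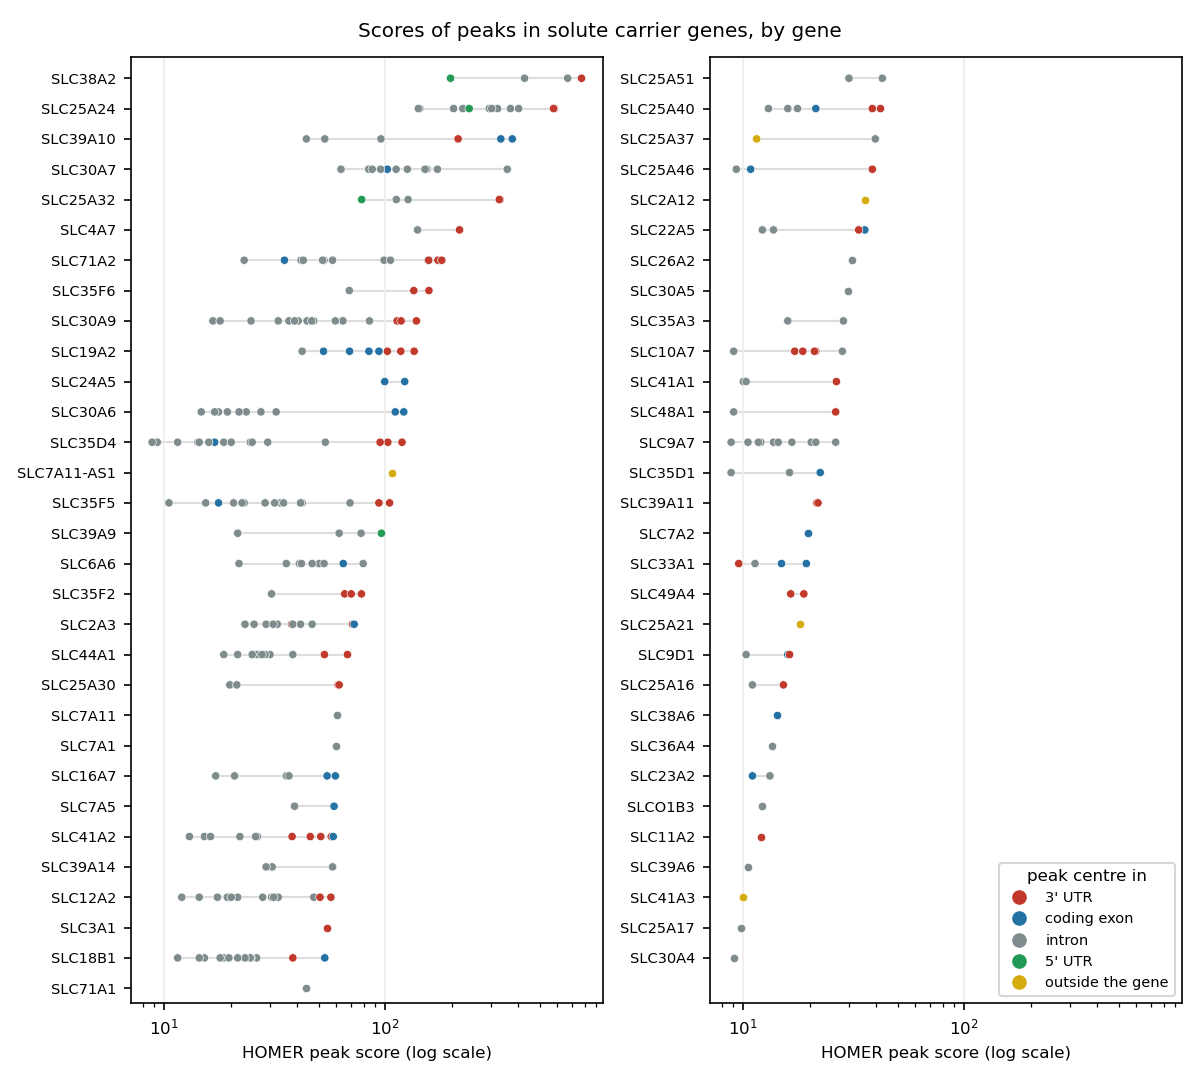
HOMER peak score (x axis, log scale) of every peak in 61 of the 63 solute carrier genes, 1 row per gene in order of the highest score, the upper part of the order on the left. Colour gives the place of the peak centre in the canonical transcript; the highest peaks of SLC38A2 (774.5) and SLC25A24 (583.4) were in the 3′-UTR, and that of SLC39A10 (376.4) in a coding exon.

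Among amino acid transporters, SLC38A2 stood highest. It encodes SNAT2, a sodium-coupled carrier of small neutral amino acids, and its score of 774.5 was the top value of the 63 genes and ranked 70 among the 3313 genes. That peak lay in its 3′-UTR on chr12:46359615-46359961 (hg38). If 1 score step is 1 read, which was not stated, counting error alone would put this score between 748 and 802. The other 3 SLC38A2 peaks lay at its 5′ end: 2 in the first introns just beyond an exon, at 670.3 and 427.8, and 1 in the 5′-UTR at 197.7. Both ends of the transcript thus had high scores, and no peak was listed in the introns and coding exons between.

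The other amino acid transporters had lower scores and mostly 1 or 2 peaks. SLC6A6, the taurine transporter, had 10 peaks between 21.8 and 79.5. SLC7A5, which encodes the large neutral amino acid transporter LAT1, had peaks at 58.7 in its first coding exon and 38.9 in intron 7. SLC7A1, a cationic amino acid transporter gene, had 1 intronic peak at 60.2, and SLC7A2, its relative, had 1 in a coding exon at 19.6. SLC7A11, the cystine and glutamate exchanger gene, had 1 peak in intron 4 at 60.7. SLC3A2, the partner of LAT1 and of the SLC7A11 protein, and the glutamine carriers SLC1A5 and SLC38A1 had no peak. None of the 7 SLC1A genes, for glutamate and neutral amino acid carriers, had one.

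SLC7A11-AS1 was listed once, at 107.9. Its peak, on chr4:138178908-138179254, was annotated to a transcript termination site, lay outside the canonical transcript of the antisense gene and overlapped a coding exon and an intron of SLC7A11. Per the labels the libraries were made with a TruSeq RNA kit that does not mark strand, so reads of the 2 genes cannot be told apart there.

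Zinc transporters were the group with the most genes of high score, 4 of 10 listed genes at 100 or above, beside 21.6% of all genes with a peak. As a share of listed genes, nucleotide sugar transporters stood higher, with 3 of 6. Such small counts do not set a group apart. SLC39A10, which encodes the zinc importer ZIP10, had 6 peaks. Its highest, at 376.4 and 334.0, overlapped each other on opposite strands in coding exon 2, on chr2:195680571-195680917 and chr2:195680386-195680732. They were followed by the 3′-UTR peak at 213.9 and by 3 intronic peaks at 95.7, 53.3 and 44. In SLC39A10, then, a coding exon and not the 3′-UTR held the highest score. SLC39A9 had 5 peaks of 21.5 to 96.2, the highest in its 5′-UTR. SLC39A14 had 3 of 28.9 to 57.8, SLC39A11 had 2 in its 3′-UTR at 21.8 and 21.5, and SLC39A6, the importer known as LIV-1, had 1 at 10.5.

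The SLC30A genes were led by SLC30A7, which encodes ZnT7, a carrier of zinc into the Golgi apparatus. It had 12 peaks of 63.1 to 357.0, the highest in intron 1, 50 bp from the nearest exon, on chr1:100896219-100896565. Peaks lay in or within 1 peak length of 9 of its 11 exons, but none in its 6903 bp 3′-UTR. SLC30A9, the mitochondrial zinc transporter gene, had the most peaks of all 63 genes, 17, of which 3 were in the 3′-UTR at 138.5, 118.0 and 113.3 and 14 in introns at 16.6 to 84.9. SLC30A6 had 12 peaks: its highest, at 121.4, was in a coding exon, and the median of the 12 was 25.5. SLC30A5 and SLC30A4 had 1 peak each at 29.9 and 9.05, and SLC30A1, the plasma membrane exporter gene, had none.

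Mitochondrial carriers gave the second gene of the ranking. SLC25A24 encodes a calcium-regulated carrier of ATP-magnesium and phosphate in the inner mitochondrial membrane. All of its 14 peaks scored between 141.4 and 583.4, so that its weakest peak was above the highest peak of 55 other solute carrier genes. Its 2 highest peaks, at 583.4 and 578.7, lay in the 3′-UTR on opposite strands, and the intronic peaks followed at 402.1 and below. Peaks lay in or near 8 of its 10 exons. SLC25A32, the mitochondrial folate carrier gene, had 2 peaks on its 3′-UTR at 331.6 and 328.7 and 3 of 78.3 to 127.0 elsewhere. The remaining 8 carriers had highest scores of 9.79 to 61.9, among them SLC25A30 (61.9), the NAD carrier gene SLC25A51 (42.6), SLC25A40 (41.8) and mitoferrin 1, SLC25A37 (39.6). The abundant carriers SLC25A3, for phosphate, and SLC25A5 and SLC25A6, for ADP and ATP, had no peak.

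**Figure D3:**
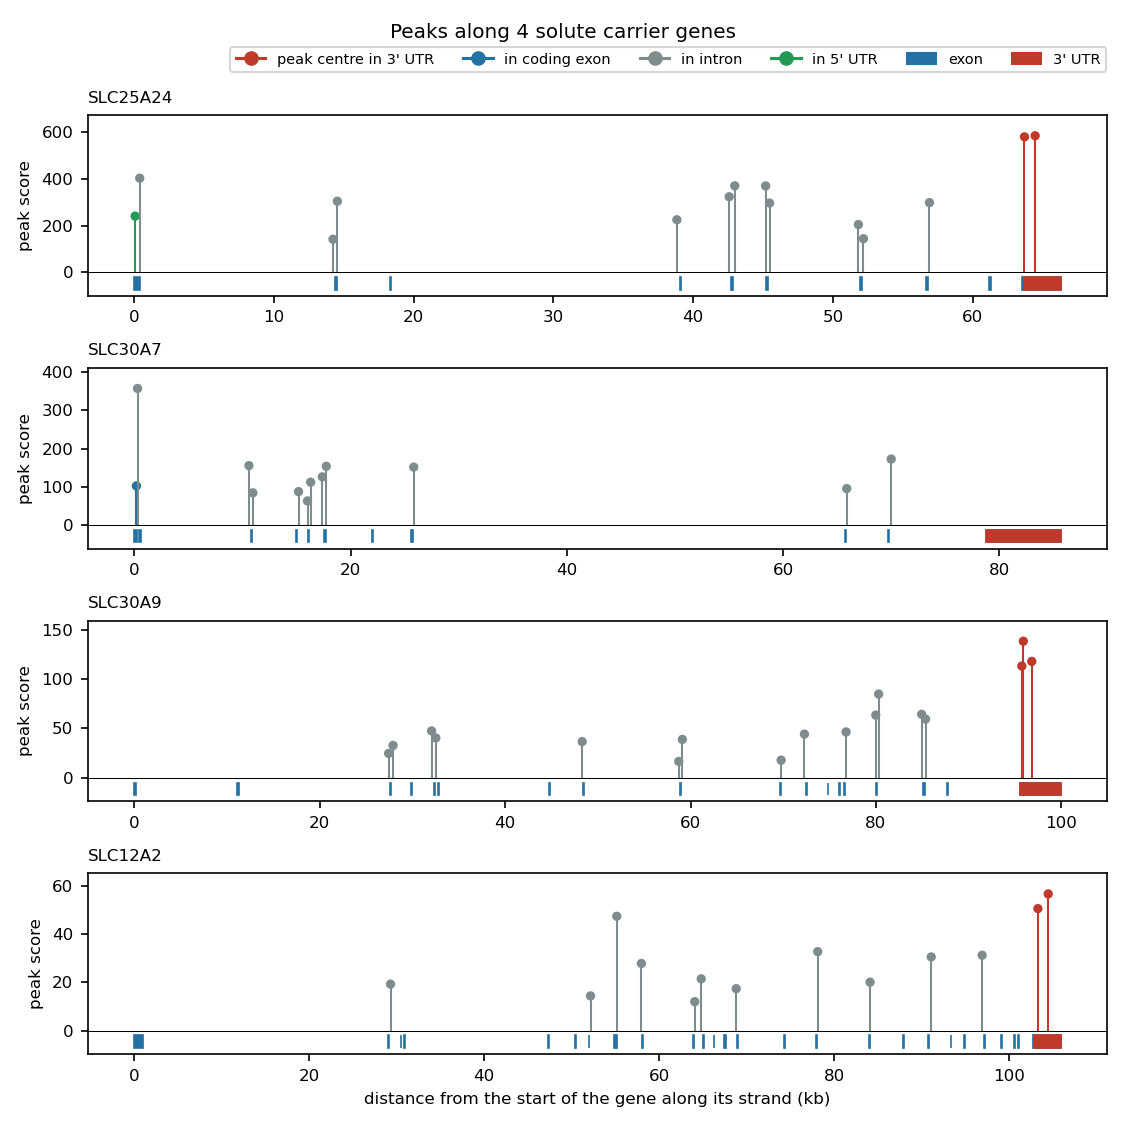
Peaks of SLC25A24, SLC30A7, SLC30A9 and SLC12A2 along each gene (x axis, distance in kb from the start of the gene along its strand; y axis, HOMER peak score). Stems are peaks, coloured by the place of their centre, and boxes under the axis are exons of the canonical transcript with the 3′-UTR in red. Most intronic stems stand beside an exon, and SLC30A7 alone of the 4 has none over its 3′-UTR.

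In the SLC35 family, which carries nucleotide sugars into the endoplasmic reticulum and Golgi apparatus and includes members without a known substrate, 6 of 31 genes had a peak. SLC35F6 had 3 peaks, at 157.8 and 134.8 in the 3′-UTR and 68.8 in intron 1. SLC35D4 (TMEM241 in the list) had 16 peaks, with 119.2, 102.8 and 94.9 in its 3′-UTR and all others at 53.6 or lower, down to 8.81. SLC35F5 had 15 peaks of 10.5 to 104.7, and SLC35F2 had 5 of 30.6 to 78.1. SLC35A3, the transporter gene for UDP-N-acetylglucosamine, and SLC35D1 reached 28.4 and 22.3. In both genes with over 14 peaks the highest 2 were in the 3′-UTR.

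Ion exchangers were led by SLC4A7, which encodes the sodium bicarbonate cotransporter NBCn1. Its 2 peaks were at 217.1 in the 3′-UTR and 140.2 in intron 4. SLC12A2, the sodium-potassium-chloride cotransporter NKCC1, had 13 peaks of 12 to 56.8, at or near 13 of 27 exons, and the highest 2 were in the 3′-UTR. SLC9A7, a sodium-proton exchanger gene of the Golgi apparatus, had 11 peaks, all intronic and none above 26.2. SLC26A2 had 1 peak at 31.1.

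SLC24A5, an exchanger gene known from pigment cells, was listed with 122.6 and 99.6. Both peaks lay wholly in the 3′-UTR of MYEF2, a neighbour on the opposite strand that had 5 peaks of its own with a highest score of 89.3. The reads of the 2 genes cannot be told apart there. Of the 312 peaks, 7 overlapped an exon of another gene in this way. Besides SLC24A5 and SLC7A11-AS1 they were those of SLC3A1 (54.6, over PREPL), SLC2A12 (35.7, over TBPL1), SLC25A21 (18.1, in the 3′-UTR of PAX9) and SLCO1B3 (12.2, over the SLCO1B3-SLCO1B7 readthrough gene). For these 6 genes there was no other peak, so each of them was in the list only through such peaks.

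Sugar transporters had 2 listed genes, and 1 of them, SLC2A12, was of that kind. SLC2A3, which encodes the glucose transporter GLUT3, had 11 peaks of 23.2 to 72.4. Its highest 2, at 72.4 in the last coding exon and 71.2 in the 3′-UTR, overlapped. SLC2A3 has a near-identical relative, SLC2A14, and of the 32-base words of its peak at 37.7, 76.6% occurred elsewhere in the genome. For its top peaks this share was 44.6% and 55.1%, so their reads may in part belong elsewhere. Over all 312 peaks, 35 had more than 10% of their words elsewhere, among them the intron 4 peak of SLC4A7 with 51.6%. SLC2A1, for the main glucose transporter GLUT1, had no peak.

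The remaining groups gave single genes. SLC19A2, the thiamine transporter gene, had 8 peaks, at 135.3, 117.7 and 102.3 in the 3′-UTR, between 52.6 and 93.7 in coding exons and 42.1 in an intron. SLC16A7, for the monocarboxylate transporter MCT2, had 6 peaks up to 59.5, while SLC16A1 and SLC16A3, for the lactate carriers MCT1 and MCT4, had none. SLC23A2, for an ascorbate transporter, reached 13.2. SLC44A1, the choline transporter gene, had 11 peaks, with the highest, 67.5 and 53.1, in its 8293 bp 3′-UTR and the other 9 in introns. SLC18B1, a polyamine transporter gene, had 13 peaks of 11.5 to 53.3, and SLC22A5, for the carnitine transporter OCTN2, had 4 up to 35.5. SLC41A2 had 11 peaks up to 58.2, while its relatives SLC41A1 and SLC41A3 reached 26.4 and 10.0. SLC71A2, a gene of no known substrate listed as MFSD14B, had 13 peaks, the highest at 180.4, 173.3 and 157.4 in the 3′-UTR. SLC20A1, a phosphate transporter gene, had none. The endoplasmic reticulum acetyl-CoA transporter gene SLC33A1, the iron transporter gene SLC11A2 and 14 others had no score as high as 20.

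By the deposited annotation, 204 of the 312 solute carrier peaks were intronic (65.4%), 43 lay in 3′-UTRs (13.8%, interval 10.4 to 18%) and 32 in coding exons (10.3%). For the other peaks of the list the 3′-UTR share was 14.6%. A further 20 solute carrier peaks (6.41%) were annotated to exons of non-coding transcripts, beside 3.38% of other peaks, and 17 of these 20 lay in the 3′-UTR of the canonical protein-coding transcript of the same gene. By canonical transcripts 62 solute carrier peaks (19.9%) were centred in a 3′-UTR, and 17.1% of other peaks. They were 42 of the 43 above, these 17 and 3 annotated to termination sites. Among the 17 were the highest peaks of SLC25A32, SLC4A7, SLC35D4, SLC35F5 and SLC12A2. The median score was 63.1 for 3′-UTR peaks, 56.4 for exonic peaks and 27.4 for intronic peaks.

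The intronic peaks of solute carrier genes stood next to exons. Of 209 peaks centred in a canonical intron, 207 (99%) had an exon within 347 bp, the length of a peak, at a median distance of 108 bp, and for other genes the share was 96.3% and the median 100 bp. The 2 exceptions were an SLC25A37 peak 976 bp and an SLC35D4 peak 544 bp from the nearest exon. In 205 of the 207 the nearest exon was behind the peak along the strand the list gave it. Reading the position at the edge behind the centre, and not at the centre, placed 165 of the 312 (52.9%) in coding exons instead of 32 and left 62 (19.9%) in introns. Of the 312 peaks 169 (54.2%) were on the strand of their gene, and 54 of 257 merged loci (21.0%) held peaks of both strands. How the authors placed or extended reads was not stated, and its part in these positions was not tested.

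**Figure D4:**
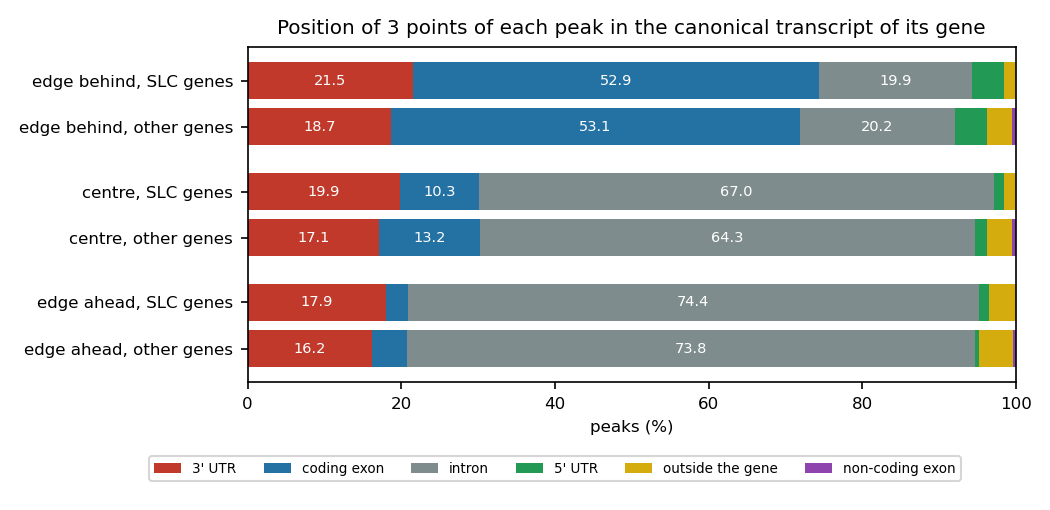
Place of the edge behind, the centre and the edge ahead of each peak (along the strand given in the list) in the canonical transcript of its gene, as percent of peaks (x axis), for 312 solute carrier peaks and for the peaks of other genes. Between the centre and the edge behind, the intronic share in solute carrier genes falls from 67.0 to 19.9% and the coding share rises from 10.3 to 52.9%, with much the same shares in other genes.

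The 2 exons below show this arrangement. Capitals mark the exon and small letters 40 bases of intron on either side, on the strand of the gene. Exon 5 of 10 of SLC25A24 (159 bp, chr1:108157462-108157620) lay between the centres of a minus-strand peak at 369.5 and a plus-strand peak at 322.8. These were centred 94 bp outside it and 147 bp outside its other end, and both peaks reached into the exon. Exon 6 of 11 of SLC30A7 (144 bp, chr1:100913663-100913806) holds the run of CAT and CAC triplets of the histidine-rich loop that ZnT proteins carry. It lay between the centres of peaks at 126.0 and 153.7, 184 and 36 bp from its ends. The first of these peaks ended short of the exon, and the second covered most of it. In both introns ahead of the exon the last bases before the capitals are rich in T, as splice acceptor sites are.
SLC25A24 exon 5, chr1:108157422-108157660, minus strand: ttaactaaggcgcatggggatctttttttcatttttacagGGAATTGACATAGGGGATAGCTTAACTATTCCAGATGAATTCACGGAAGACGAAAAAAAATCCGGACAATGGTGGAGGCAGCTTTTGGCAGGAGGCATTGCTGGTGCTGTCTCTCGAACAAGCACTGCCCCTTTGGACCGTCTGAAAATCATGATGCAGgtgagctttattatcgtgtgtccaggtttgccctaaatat
SLC30A7 exon 6, chr1:100913623-100913846, plus strand: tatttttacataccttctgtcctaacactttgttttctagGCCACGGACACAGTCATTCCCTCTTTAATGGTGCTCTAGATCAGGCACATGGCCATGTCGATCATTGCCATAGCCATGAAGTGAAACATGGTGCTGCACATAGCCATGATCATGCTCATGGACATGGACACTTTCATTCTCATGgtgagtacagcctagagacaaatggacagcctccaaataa

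Within a gene, 3′-UTR peaks scored higher than the rest. In 28 solute carrier genes with a canonical 3′-UTR peak and another peak, the median 3′-UTR score was above the median of the other peaks in 27, with a median log2 ratio of 1.18 (SD 0.63, n = 28). In the other genes of the list this held for 912 of 1050, with a median log2 ratio of 0.88. The ratio was largest in SLC35D4, at 6.08, and the exception was SLC33A1, the acetyl-CoA transporter gene, with 9.54 in the 3′-UTR and a median of 14.9 elsewhere. The single highest peak lay in the 3′-UTR in 21 of the 28 genes (75%), in a coding exon in 6 and in an intron in 1. In other genes it was in the 3′-UTR in 690 of 1050 (65.7%), a share within the interval of 56.6 to 87.3% of the 28. Over all 63 genes it lay in the 3′-UTR in 26 (41.3%, interval 30 to 53.6%), beside 30.7% of other genes.

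**Figure D5:**
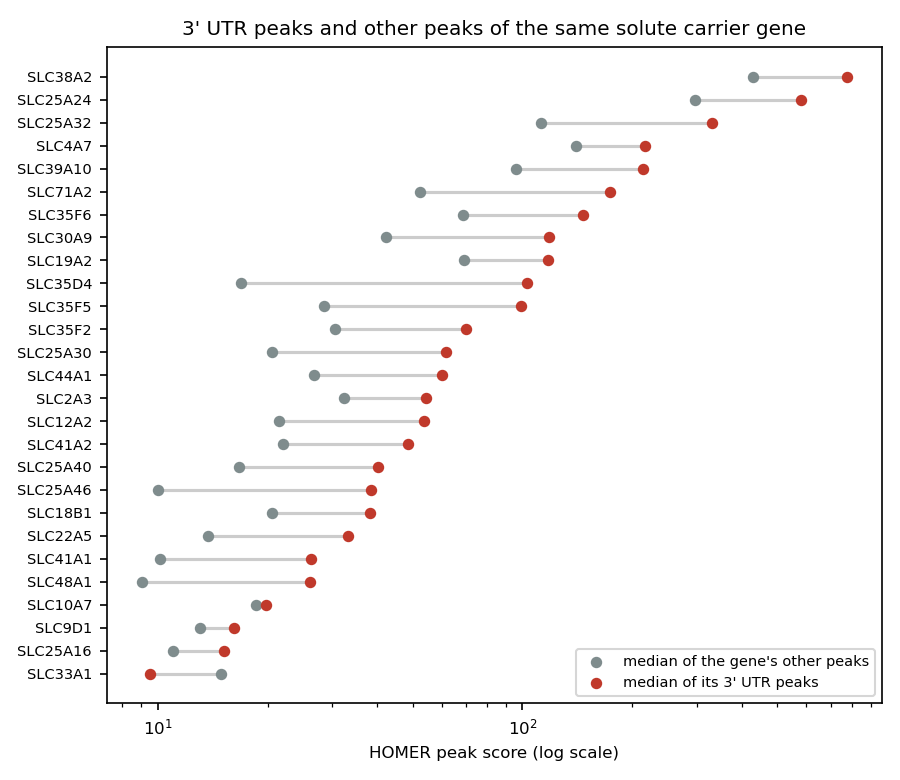
Median score of the 3′-UTR peaks (red) and of all other peaks (grey) of the same gene, for 27 of the 28 solute carrier genes in order of the 3′-UTR value (x axis, HOMER peak score, log scale). The red point is to the right in 26 genes; in SLC33A1 it is to the left.

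As in the rest of the list, the 3′-UTRs of solute carrier genes with a peak were longer and held more ATTTA than those of genes without one. The median length was 2732 bp in 62 genes with a peak and 1121 bp in 335 without, and 2486 and 833 bp in the other genes of the genome. Median GC content was 36.7% with a peak and 44.9% without, and 36.6 and 43.8% in other genes. ATTTA occurred in the 3′-UTR of 61 of the 62 listed genes and 223 of the 335 others, at 3.17 and 1.95 per kb of pooled sequence. Genes outside the family differed likewise, with ATTTA in 93.3% of those with a peak and 61.9% of those without, at 2.79 and 2.07 per kb. Length and base composition move with ATTTA, and their part in this was not tested.

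In the peaks themselves ATTTA was less clear-cut. Of 53 solute carrier peaks that lay wholly in a 3′-UTR, 33 (62.3%, interval 48.8 to 74.1%) held ATTTA on the strand of the gene, and 20 did not. These 53 peaks came from 32 genes, and some overlapped each other on opposite strands. The interval takes them as independent and is therefore too narrow. The share was 53.9% of 2018 such peaks in other genes and 47.7% of all 88279 stretches of the same 347 bp length in the 3′-UTRs of protein-coding genes. By mean number of ATTTA the sets were closer: 0.830 per solute carrier peak, 0.835 per peak of other genes and 0.783 per stretch. In windows moved back to the edge behind the centre, the share with ATTTA was 48.1% in solute carrier genes and 52.6% in other genes. The heptamer TATTTAT, which contains ATTTA, was in 3 of the 53 (5.66%), and 9.35% of all stretches held it. A run of TTTTT was in 37 of 53 (69.8%), in 79.0% of the peaks of other genes and in 62.8% of all stretches. Most ATTTA were single: the median was 1 per peak and the most was 3, in SLC19A2 and SLC33A1. The SLC38A2 and SLC25A24 stretches printed above hold the only ATTTA of those peaks, while the highest 3′-UTR peak of SLC25A32, the fifth gene of the ranking, had none.

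The gene that the list names for a peak often differed from the gene of its transcript. The gene name column named another gene for 105 of the 312 peaks (33.7%) and 24 of the 43 3′-UTR peaks (55.8%), beside 41.5% and 58.8% of the peaks of other genes. The top peaks of SLC25A32, SLC4A7, SLC35F6 and SLC19A2 stood under the neighbours DCAF13, NEK10, CENPA and CCDC181. In turn, the column named a solute carrier gene for 276 peaks and 68 genes, and 207 of the 276 had that gene as host. The other 69 had another host or none, such as 3 of CFAP97 under SLC25A4 with a highest score of 140.7 and 6 of ROCK2 under SLC66A3 with a highest score of 95.2. Read by the transcript, SLC25A4 and SLC66A3 had no peak.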

How the data were processed

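RIP-seq reads of 2 HuR and 2 IgG samples were, per the labels and methods, aligned to hg38 with STAR, and peaks were called with HOMER by the authors and selected for altered abundance. Versions, thresholds and pooling are not given in the sources used here. The deposited table held 14149 peaks of 347 bp with a HOMER peak score, a focus ratio (a fraction) and a distance in bp to the nearest start site, 1 value for the series and none per sample, so no HuR against IgG test could be run. Depth is unknown: all 11121 deposited scores under 100 were whole multiples of 0.245 within rounding (39.3% by rounding alone), which may be 1 read.

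Host symbols came from RefSeq (GRCh38.p14), matched for 13838 of 13929 peaks with a transcript. Exons were those of GENCODE 44 canonical transcripts; a peak belongs to an exon or 3′-UTR by its centre. Intervals are 95% Wilson, Poisson on score steps, or rank-based for a median, and cover counting error only. Those of peak shares take peaks of the same gene as independent. The members and gene lists were chosen with earlier results of these data known. Genes named were the 20 with the highest score, the 10 with most peaks and a fixed list of 20; others were chosen after their values were seen. Values of some genes are not reported here and not plotted. Functions were tested on simulated data (Python 3.11.15, pysam 0.24.0, SciPy 1.17.1).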

Additional observations from a re-analysis of the deposited data

How the results depend on the processing

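No paired analysis was possible because no column gives values of single samples, and leaving out replicates, the replicate block and the HuR against IgG test were not run for the same reason. Of 22 alternatives, 12 stayed within 1.5 times the count or within the interval of the value given. With peaks at or above the list median score, 151 peaks in 38 genes remained, 21.9% of them in 3′-UTRs, and the median highest score was 69.95. The 3′-UTR share was 19.9% by canonical transcripts, 21.5% at the edge behind the centre and 43% of the 100 peaks in exons and UTRs. Summed over the peaks of a gene, the median score was 94.7. TATTTAT was in 5.66% of 3′-UTR peaks, and ATTTA in 48.1% of windows moved back to that edge, beside 52.6% in other genes. With alternatives added after seeing the data, 57 genes had a peak apart from exons of other genes, and 59 a peak with at most 10% of its 32-base words elsewhere. The share of listed genes was 15.7% without 4 genes that are no carriers, and 37.5% for other metals and magnesium with peaks inside the transcript only.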
